A study of Mus musculus with 9 samples.

Results

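The 9 genes described here, Cpt1a, Ucp3, Ucp2, Acot1, Acot2, Angptl4, Pdk4, Plin2 and Plin5, are targets of the peroxisome proliferator-activated receptors (PPARs) that muscle uses when it turns from glucose to fat. They are 9 of the 24062 gene symbols counted, all 9 passed the filter on low counts, and the list was chosen by measured values, the high counts of Cpt1a, Ucp3, Acot2 and Angptl4 in hetX753 against wild-type muscle. Their hetX753 values are therefore given as a description with no test, and only hetL1002P against wild type is tested for them. RNA was sequenced from gastrocnemius, a calf muscle of mixed fibre type, of mice 3 months old, whose background mixed 129Sve with C57BL/6. The 3 genotypes had 3 libraries each: hetX753 (BubR1+/X753) and hetL1002P (BubR1+/L1002P), which each carry an altered allele beside a normal copy of Bub1b, and wild type (WT). Bub1b encodes BubR1, a protein of the spindle assembly checkpoint, and both alleles come from mosaic variegated aneuploidy, a disorder of chromosome segregation. The sources used here give neither feeding state nor hour of collection.

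PPARs are nuclear receptors that bind fatty acids and their derivatives. Each pairs with a retinoid X receptor (RXR) on DNA, at a direct repeat of the hexamer AGGTCA with a single base between the copies, and recruits coactivators to neighbouring genes. In fasting or endurance exercise, fatty acids reach muscle and the receptors raise genes for releasing, storing and burning fat and for sparing glucose. Angptl4 acts outside the fibre, Plin5 and Plin2 coat its lipid droplets, Cpt1a admits fatty acids to mitochondria, Acot2 and Acot1 split acyl-CoA, Ucp3 and Ucp2 sit in the inner mitochondrial membrane, and Pdk4 closes the entry of pyruvate.

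The RefSeq table of GRCm38.p6 gave promoter windows of 300 bases (250 before to 50 after an annotated start) for 8 of the 9 genes, all but Angptl4. An annotated start need not be the outermost base of the gene. The RefSeq span of Cpt1a begins at 3322326, upstream of its window, and that of Plin2, on the minus strand, begins at 86670217, inside its window. Shown is 1 window for each of the 4 genes whose windows hold the hexamer that PPAR and RXR bind. Plin5 has a window for each of 2 annotated starts, and the one further upstream is shown. Capitals mark AGGTCA on the printed strand, TGACCT (the same hexamer on the other strand) and the direct repeat of the hexamer with 1 base between the copies, where either strand matched it with at most 2 mismatches. The Cpt1a window lies at chr19:3323051-3323350 on the plus strand, that of Ucp3 at chr7:100472741-100473040 on the plus strand, that of Plin2 at chr4:86670010-86670309 on the minus strand and that of Plin5 at chr17:56117499-56117798 on the minus strand.
Cpt1a: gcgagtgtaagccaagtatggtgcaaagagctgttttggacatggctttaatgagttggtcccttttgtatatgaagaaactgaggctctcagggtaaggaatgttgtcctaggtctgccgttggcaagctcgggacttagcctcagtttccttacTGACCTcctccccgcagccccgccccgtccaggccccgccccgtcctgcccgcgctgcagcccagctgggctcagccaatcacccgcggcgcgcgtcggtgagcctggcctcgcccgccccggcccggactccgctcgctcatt
Ucp3: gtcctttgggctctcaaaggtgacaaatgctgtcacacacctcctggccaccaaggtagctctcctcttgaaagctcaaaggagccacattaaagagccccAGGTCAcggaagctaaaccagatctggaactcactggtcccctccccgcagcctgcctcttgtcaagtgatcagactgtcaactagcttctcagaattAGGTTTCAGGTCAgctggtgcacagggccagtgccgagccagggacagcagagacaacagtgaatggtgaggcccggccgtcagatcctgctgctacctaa
Plin2: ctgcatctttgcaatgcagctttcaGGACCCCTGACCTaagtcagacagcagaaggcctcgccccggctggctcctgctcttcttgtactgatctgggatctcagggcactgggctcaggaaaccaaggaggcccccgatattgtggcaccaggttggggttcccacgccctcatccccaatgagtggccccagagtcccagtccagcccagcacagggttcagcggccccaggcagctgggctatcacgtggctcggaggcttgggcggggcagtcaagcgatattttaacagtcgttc
Plin5: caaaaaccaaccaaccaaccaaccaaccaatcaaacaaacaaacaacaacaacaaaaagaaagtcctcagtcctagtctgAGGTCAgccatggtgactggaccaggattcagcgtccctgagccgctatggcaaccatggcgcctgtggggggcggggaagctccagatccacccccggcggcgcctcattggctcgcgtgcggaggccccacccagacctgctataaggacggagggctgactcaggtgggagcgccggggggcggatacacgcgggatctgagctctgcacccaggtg

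Positions are counted from the annotated start on which each window was placed. The hexamer starts 94 bases before it in Cpt1a, 149 and 44 bases before it in Ucp3 and 218 bases before it in Plin2. In the Plin5 window shown it starts 170 bases before. The other Plin5 window, not shown, holds a hexamer 13 bases after its annotated start. The repeat with at most 2 mismatches was found in Ucp3, where it overlaps the hexamer nearer the start, and in Plin2, where it overlaps the only hexamer. Of 32851 RefSeq promoter windows of this length, 16.3% hold AGGTCA on either strand, 1.81% hold at least 2 copies and 3.86% hold the repeat with at most 2 mismatches. The windows of Ucp2, Acot1, Acot2 and Pdk4 hold neither motif in these letters.

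Acot1 and Acot2 are neighbours on chromosome 12, 15624 bases apart, and their coding sequences are 95.6% identical over 1236 aligned bases, with 55 mismatches. The stretch below, from the reference coding sequences, shows how reads of the pair are told apart. Capitals mark the 5 positions of 90 at which they differ, and the stretch covers coding bases 1115 to 1204 of Acot1 and 1238 to 1327 of Acot2.
Acot1: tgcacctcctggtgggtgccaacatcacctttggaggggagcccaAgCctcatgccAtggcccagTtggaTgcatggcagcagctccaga
Acot2: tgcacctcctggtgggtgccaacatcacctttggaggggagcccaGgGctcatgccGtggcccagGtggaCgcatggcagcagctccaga

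Of all 50-base words in the transcripts, 33.6% of those of Acot1 and 27.7% of those of Acot2 occur in another gene as well, mostly in each other. How such reads were counted is not stated in the labels or processing notes, so the split between Acot1 and Acot2 is uncertain. Ucp2 and Ucp3 also adjoin, 6904 bases apart on chromosome 7, but their coding sequences are 75.4% identical, their longest identical run is 24 bases and they share no 50-base word.

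Library totals were 20106833 to 27797765 counts in hetX753, 22795669 to 25712368 in hetL1002P and 19768149 to 33977252 in WT. Bub1b averaged 0.278 ± 0.0432 CPM in hetX753, 0.271 ± 0.156 CPM in hetL1002P and 0.654 ± 0.107 CPM in WT (SD, n = 3 libraries each; CPM is counts per 1e6 of the TMM-scaled library total), on 2 to 21 counts per library. WT 3 and hetL1002P 3 stood apart from the other 7 libraries on the first principal component, which held 39.7% of the variance (-47.5 and -32.5, against -9.52 to 28.8). The muscle genes Acta1, Ckm, Ttn, Neb and Des were abundant in every library. Ttn and Neb were lowest in WT 3 (2594 and 1523 CPM), where Acta1 and Ckm were highest (59152 and 27061 CPM). In whole muscle, fewer cells of a type and less RNA per cell cannot be told apart.

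In hetX753 muscle, 6 of the 9 genes (Ucp3, Cpt1a, Angptl4, Pdk4, Acot2 and Plin5) had fitted levels 1.94 to 3.00 times those of WT. Acot1 was 1.37-fold and Ucp2 1.08-fold higher, and Plin2 was 1.19-fold lower. Log2 fold changes were above 0 in 8 of 9, against 50.4% of all genes; that of Ucp2 fell below 0 without hetX753 2. All 3 hetX753 libraries lay above all 3 WT libraries in 5 of the 9 genes (Cpt1a, Ucp3, Acot2, Angptl4 and Plin5), a pattern that 16.7% of all genes tested show. The same 5 genes lay above all 6 other libraries, as 4.49% of genes do. These shares stand beside counts that the choice of the genes fixed, and nothing is read from them. By edgeR, 66 genes or 0.508% of all tested passed an adjusted p of 0.05 in this comparison, in which no test of the 9 genes is given.

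**Figure D1:**
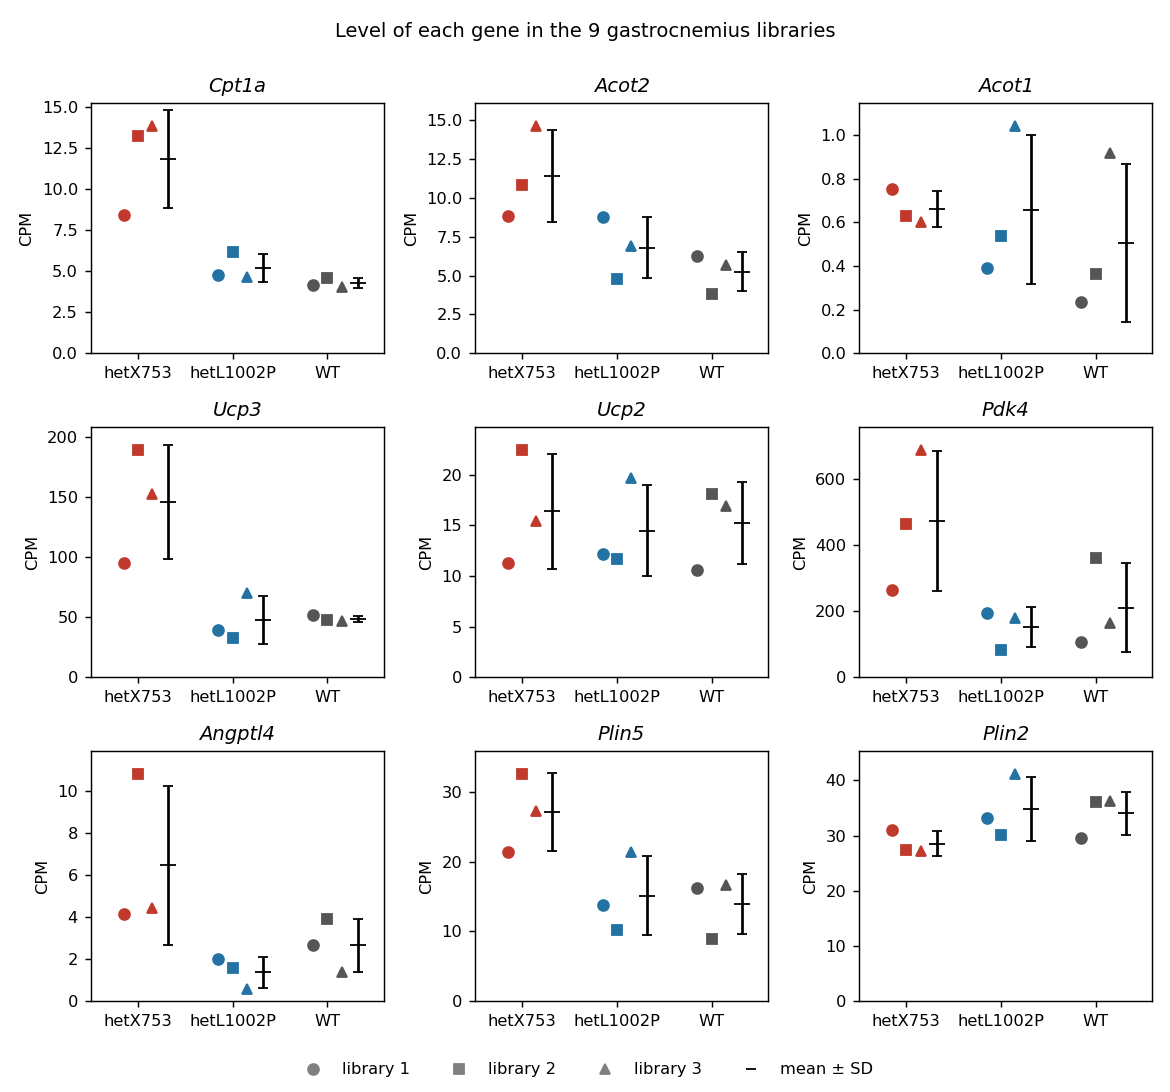
Level of each of the 9 genes (vertical axes, CPM from 0) in the 3 hetX753, 3 hetL1002P and 3 WT libraries, left to right; points are libraries, marked by their number, and bars their mean ± SD. The hetX753 points of Cpt1a, Ucp3, Acot2, Angptl4 and Plin5 lie above every other point, and those of Pdk4 overlap WT 2.

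Angptl4 encodes a secreted inhibitor of lipoprotein lipase, the enzyme that frees fatty acids from circulating triglyceride. It had 4.17, 10.9 and 4.43 CPM in hetX753, 2.01, 1.58 and 0.569 CPM in hetL1002P, and 2.69, 3.92 and 1.402 CPM in WT. The hetX753 libraries lay above all others, but hetX753 2 was well above the other two and the lowest of the genotype was close to the highest WT library. The log2 fold change of hetX753 against WT was 1.28 (SE 0.49), and it was 0.68 without hetX753 2 and 1.63 without WT 2. These values rest on 96 to 275 counts per library in hetX753, 12 to 51 in hetL1002P and 29 to 91 in WT.

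Plin5 encodes a lipid droplet coat protein of oxidative tissues that holds droplets against mitochondria. It had 21.4, 32.6 and 27.2 CPM in hetX753, 13.85, 10.25 and 21.3 CPM in hetL1002P, and 16.2, 8.93 and 16.6 CPM in WT. hetX753 did not overlap the other genotypes, though hetX753 1 exceeded hetL1002P 3 by little. The log2 fold change against WT was 0.95 (SE 0.29), and it was 0.56 without both hetX753 2 and WT 2. Plin2 encodes the most widely expressed droplet coat protein. Its levels were 31.1, 27.5 and 27.1 CPM in hetX753, 33.2, 30.0 and 41.2 CPM in hetL1002P, and 29.6, 36.1 and 36.3 CPM in WT. Here hetX753 overlapped both other genotypes, and its log2 fold change against WT was -0.25 (SE 0.14), the only one of the 9 below 0.

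Cpt1a encodes a carnitine palmitoyltransferase of the outer mitochondrial membrane, the step at which long-chain fatty acids are committed to oxidation. It had 8.41, 13.2 and 13.85 CPM in hetX753, 4.76, 6.15 and 4.65 CPM in hetL1002P, and 4.17, 4.59 and 4.01 CPM in WT. WT libraries were tightly grouped, hetL1002P lay slightly above them and hetX753 above both. The log2 fold change of hetX753 against WT was 1.47 (SE 0.21), a 2.77-fold difference, and it ran from 1.34 to 1.66 when any library was left out, the narrowest such range after that of Plin2. Cpt1b encodes the isoform that muscle is known to use. Its level here was 0.467, 0.513 and 1.11 CPM in hetX753, 0.393, 0.755 and 0.190 CPM in hetL1002P, and 0.355, 0.155 and 0.145 CPM in WT. Since 81.4% of its exon bases also belong to exons of another annotated gene on the same strand, and how such reads were assigned is not stated, that level is uncertain.

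Acot2 encodes a mitochondrial thioesterase that splits long-chain acyl-CoA into fatty acid and CoA. It had 8.80, 10.8 and 14.6 CPM in hetX753, 8.73, 4.78 and 6.88 CPM in hetL1002P, and 6.27, 3.82 and 5.66 CPM in WT. All hetX753 libraries were highest, but hetX753 1 and hetL1002P 1 were nearly equal. The log2 fold change against WT was 1.11 (SE 0.27). Acot1 encodes the cytosolic counterpart. It had 0.754, 0.631 and 0.600 CPM in hetX753, 0.393, 0.539 and 1.04 CPM in hetL1002P, and 0.237, 0.361 and 0.919 CPM in WT, on 7 to 22 counts per library. The 2 highest values were those of hetL1002P 3 and WT 3, the libraries that stood apart, and the log2 fold change of hetX753 against WT was 0.45 (SE 0.53) with all libraries, 1.20 without both of them and 0.04 without WT 1.

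Ucp3 encodes a carrier of the inner mitochondrial membrane found mainly in skeletal muscle, whose RNA is known to follow fatty acid supply. It had 95.4, 189.5 and 152 CPM in hetX753, 39.7, 33.0 and 70.55 CPM in hetL1002P, and 51.75, 47.3 and 46.65 CPM in WT. The lowest hetX753 library was above the highest of the other genotypes, and the log2 fold change against WT was 1.58 (SE 0.29), a 3.00-fold difference and the largest of the 9. Its neighbour Ucp2, which encodes a related carrier made in many tissues, had 11.3, 22.5 and 15.5 CPM in hetX753, 12.2, 11.65 and 19.7 CPM in hetL1002P, and 10.6, 18.1 and 17.0 CPM in WT. The 3 genotypes overlapped at Ucp2, with a log2 fold change of 0.12 (SE 0.29) in hetX753 against WT that was -0.18 without hetX753 2 and -0.04 without both hetX753 2 and WT 2.

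Pdk4 encodes a kinase that phosphorylates and shuts the pyruvate dehydrogenase complex, so that glucose carbon is kept from oxidation. It had 265, 463 and 688 CPM in hetX753, 195, 82.0 and 178 CPM in hetL1002P, and 106, 361 and 164 CPM in WT. All hetX753 libraries lay above hetL1002P, but WT 2 lay above hetX753 1, so hetX753 and WT overlapped. The log2 fold change against WT was 1.17 (SE 0.49), and it was 0.78 without hetX753 3 and 1.81 without WT 2. Pdk2, another kinase of the same complex, had 760.4, 739.7 and 775 CPM in hetX753, 721, 678 and 757 CPM in hetL1002P, and 781, 801 and 901 CPM in WT. The libraries of hetX753 and hetL1002P overlapped at Pdk2, and those of both lay below all WT libraries. Of all genes, 15.8% show this in hetX753 and 3.77% in hetL1002P. The Pdk2 log2 fold change against WT was -0.13 in hetX753 and -0.20 in hetL1002P.

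Within hetX753 the libraries did not share an order at every gene. hetX753 1 was the lowest of its genotype in 7 of the 9 genes, while hetX753 2 was the highest in 4 and hetX753 3 in 3. The summed level of the 9 genes, mostly Pdk4 and Ucp3, was 446, 770.4 and 943 CPM in hetX753, 309.8, 179.96 and 344 CPM in hetL1002P, and 228, 484 and 292 CPM in WT. By this sum hetX753 1 lay below WT 2, in which Pdk4 made up 361 CPM.

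Scaled by exon length (RPKM, CPM per kilobase of exon), the 9 genes spanned a wide range of levels. Pdk4 was the most abundant, at 134 RPKM in hetX753, 43.2 RPKM in hetL1002P and 59.9 RPKM in WT, and Ucp3 followed, at 46.5 RPKM in hetX753, 15.2 RPKM in hetL1002P and 15.5 RPKM in WT. Plin5 averaged 12.96 RPKM in hetX753, 7.25 RPKM in hetL1002P and 6.66 RPKM in WT. Plin2 averaged 8.13 RPKM in hetX753, 9.91 RPKM in hetL1002P and 9.68 RPKM in WT, below Plin5 in hetX753 and above it in the other genotypes. Cpt1a averaged 1.55 RPKM in hetX753, 0.679 RPKM in hetL1002P and 0.557 RPKM in WT. Acot1 was the least abundant, at 0.169 RPKM in hetX753, 0.168 RPKM in hetL1002P and 0.129 RPKM in WT.

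The genes were next compared between hetL1002P, whose libraries the choice of the list did not use, and the WT libraries, which the 2 comparisons share. None of the 9 genes passed in hetL1002P against WT by edgeR, as 0% of all genes tested did, and none had an unadjusted p under 0.05, as 1034 of 12989 genes did. DESeq2 called 5 genes and limma-voom 2, with none of the 9 among them. Log2 fold changes ran from -0.92 to 0.41 and were above 0 in 5 of 9 genes, against 51.9% of all genes. Their median was 0.03, against 0.01 for all genes.

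Cpt1a was the only gene of the 9 with all hetL1002P libraries above all WT libraries, which 5.67% of genes show, and none of the 9 had all of them below, as 3.77% of genes do. The Cpt1a log2 fold change was 0.29 (SE 0.21; 95% interval -0.18 to 0.76; adjusted p = 0.619). At Ucp3 the log2 fold change was -0.03 (interval -0.66 to 0.61; adjusted p = 0.978), and hetL1002P 3 lay above and the other two below every WT library. At Acot2 it was 0.36 (interval -0.24 to 0.96; adjusted p = 0.624). Angptl4 had the lowest value, -0.92 (SE 0.53; interval -2.08 to 0.24; adjusted p = 0.579), with hetL1002P 1 and 2 inside the WT range. Pdk4 was at -0.47 (interval -1.54 to 0.60) and Plin2 at 0.03 (interval -0.28 to 0.35). Acot1, which rests on the fewest counts, was at 0.41 (interval -0.76 to 1.58), Plin5 at 0.11 (interval -0.53 to 0.76) and Ucp2 at -0.07 (interval -0.71 to 0.58).

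Same-numbered libraries of hetL1002P and WT deviated together, and a fit of these genotypes alone with the replicate number as a block called 635 of 12684 genes (5.01%), 334 higher (2.63%) and 301 lower (2.37%) in hetL1002P. None of the 9 genes was called in that fit either. Angptl4 came closest, with an adjusted p of 0.057, followed by Acot2 at 0.184 and Cpt1a at 0.365.

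**Figure D2:**
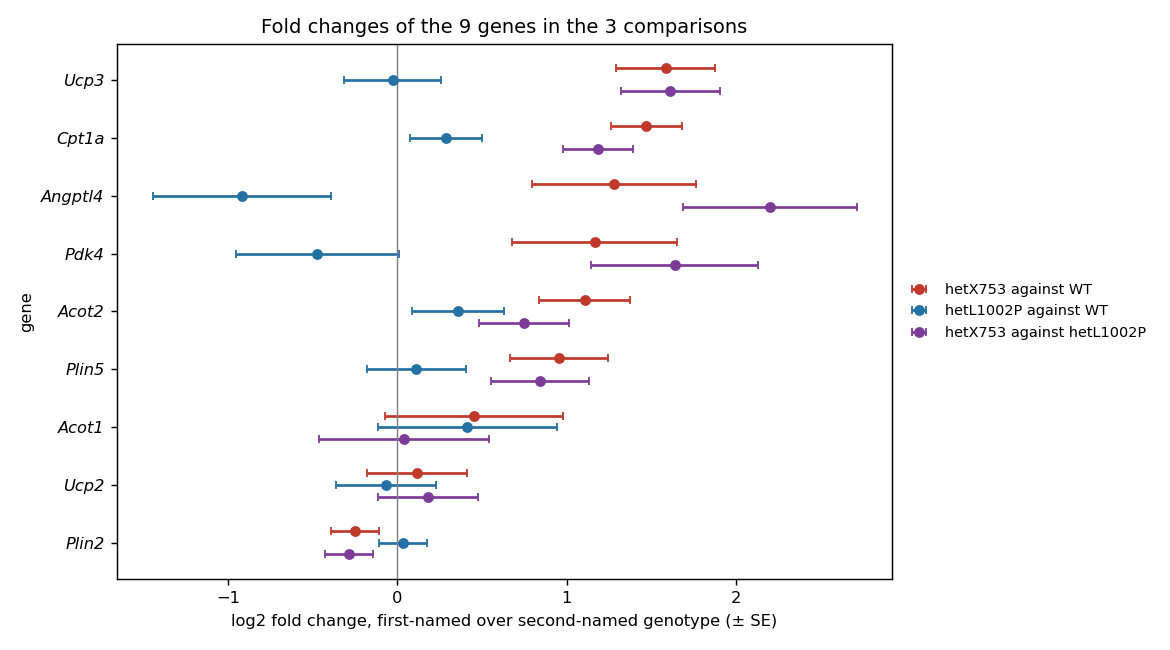
Log2 fold change of each of the 9 genes (horizontal axis) in hetX753 against WT, hetL1002P against WT and hetX753 against hetL1002P, with bars of 1 standard error on each side. Cpt1a and Ucp3 are at 1.47 and 1.58 in hetX753 against WT and near 0 in hetL1002P against WT, and Plin2 and Ucp2 are near 0 in all 3 comparisons.

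The alleles were also set side by side, with no test, since hetX753 served to choose the genes. In hetX753 against hetL1002P the difference was 4.60-fold for Angptl4. The log2 fold change was 1.64 (SE 0.49) for Pdk4, 1.61 (SE 0.29) for Ucp3 and 1.18 (SE 0.21) for Cpt1a. It was 0.84 (SE 0.29) for Plin5 and 0.75 (SE 0.27) for Acot2. All 3 hetX753 libraries exceeded all 3 hetL1002P libraries in these 6 genes, as 7.44% of all genes do. None of the 9 lay below hetL1002P in all hetX753 libraries, as 6.98% of genes do. Ucp2, Acot1 and Plin2 were at 0.18, 0.04 and -0.28, so that 8 of 9 were above 0, against 47.4% of all genes; Ucp2 was at -0.11 without hetX753 2 and Acot1 at -0.22 without hetL1002P 1. The choice of the genes bears on these counts too, and nothing is read from them. EdgeR called 15 genes in this comparison (0.115%), 8 higher (0.0616%) and 7 lower (0.0539%) in hetX753, and no test of the 9 is given. Angptl4 and Pdk4 had larger values here than against WT, because hetL1002P averaged below WT at both, 1.39 ± 0.738 against 2.67 ± 1.26 CPM for Angptl4 and 152 ± 60.9 against 210.4 ± 134 CPM for Pdk4 (SD, n = 3 libraries each).

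The genes whose levels followed those of the 4 leading genes most closely were named by the root-mean-square (RMS) difference of log2 CPM, each centred on its own mean, over the 9 libraries, among 11099 genes. Differences between genotypes were kept. Since the 4 were chosen for high values in hetX753, other genes high in hetX753 lie near them, and no shared regulation is read from this. Nearest to Cpt1a were Sec31b (RMS 0.19), Ankrd33b (0.24) and Fibin (0.25), where Cpt1a's own RMS about its mean was 0.65. Sec31b, a relative of a COPII vesicle coat subunit, had 41.4, 52.0 and 64.2 CPM in hetX753, 27.3, 31.3 and 20.9 CPM in hetL1002P, and 24.0, 19.0 and 16.5 CPM in WT. Among the genes nearest to Ucp3 were Lrrc52 (0.36) and Serpina3n (0.43), with the members Plin5 at 0.40 and Cpt1a at 0.42. Nearest to Acot2 were Abra (0.25), Lmcd1 (0.27) and Spsb4 (0.27), with Plin5 the nearest member at 0.31.

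Nearest to Angptl4 were Lep (0.45), Lgals12 (0.46) and Cidec (0.51), all genes known from fat cells, and its nearest member was Cpt1a at 0.79. Lep, the gene of leptin, had 4.56, 31.3 and 8.54 CPM in hetX753, 5.86, 3.67 and 1.23 CPM in hetL1002P, and 3.52, 7.18 and 3.53 CPM in WT. Cidec, a fat droplet protein, had 13.3, 59.7 and 16.85 CPM in hetX753, 13.8, 11.97 and 6.45 CPM in hetL1002P, and 12.6, 30.5 and 10.8 CPM in WT. The hetX753 2 library was highest at both, as it was at Angptl4.

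The 16 adipocyte markers summed to 317, 589.9 and 286 CPM in hetX753, 287, 278 and 236 CPM in hetL1002P, and 348, 568 and 354 CPM in WT. By edgeR none of the 16 passed in any comparison. An unadjusted p under 0.05 was reached by 7 in hetX753 against WT, as by 2718 of 12989 genes. It was reached by 2 in hetL1002P against WT, as by 1034 of 12989, and by 5 in hetX753 against hetL1002P, as by 1070. DESeq2 and limma-voom called none of the 16, and none was at 0 in all libraries of a genotype. The median log2 fold change of the 16 was 0.09 in hetX753 against WT, where 10 were above 0, against 50.4% of all genes. It was -0.49 in hetL1002P against WT, where 15 of 16 were below 0, as were 6249 of 12989 genes. In hetX753 against hetL1002P it was 0.49. hetX753 1 and 3 had lower sums than every WT library, with Angptl4 at 4.17 and 4.43 CPM, and hetX753 2 had the highest sum of all, with Angptl4 at 10.9 CPM. A large part of each sum was Fabp4, itself a PPAR target. Fabp4 had 165, 233 and 158 CPM in hetX753 and 151, 184 and 198 CPM in WT, so the order of the sums need not hold for the other markers. Without hetX753 2 and WT 2, the libraries with the highest sums, the log2 fold change of hetX753 against WT was 1.04 for Angptl4, 0.96 for Acot2, 1.43 for Cpt1a, 1.33 for Ucp3, 1.82 for Pdk4 and 0.56 for Plin5, against 1.28, 1.11, 1.47, 1.58, 1.17 and 0.95 for these genes with all libraries. That fit was chosen after seeing the data, and without hetX753 2 alone Angptl4 was at 0.68. The part of adipocyte RNA in the Angptl4 values of hetX753 and hetL1002P was not tested.

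**Figure D3:**
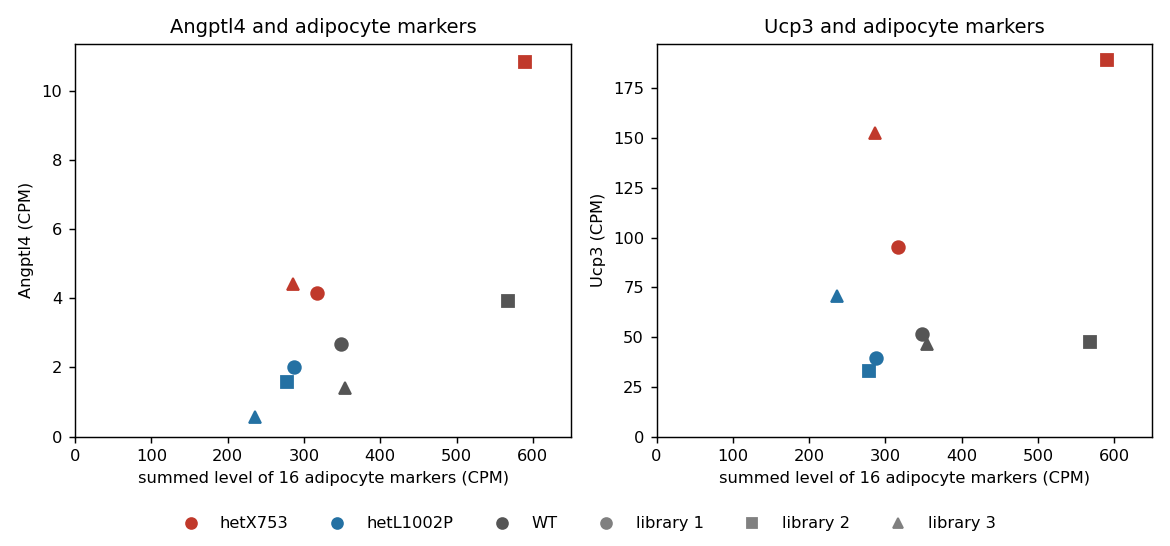
Angptl4 level (vertical axis, CPM) against the summed level of the 16 adipocyte markers (horizontal axis, CPM) in each of the 9 libraries, coloured by genotype, with Ucp3 plotted the same way on the right. hetX753 2 has the highest sum, Angptl4 and Ucp3, and hetX753 1 and 3 lie above every WT library in both genes at lower sums.

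No macrophage, endothelial or fibre-type marker passed by edgeR in any comparison. In hetX753 against WT an unadjusted p under 0.05 was reached by 3 macrophage, 1 endothelial, 1 slow fibre and 7 fast fibre genes. Of all genes, 2718 of 12989 reached it. DESeq2 called 1 fast fibre gene lower, as it did 251 of 12989 genes. Of 18 macrophage markers 17 were counted and 16 tested, and the 17 summed to 101 to 112 CPM in hetX753, 90.6 to 168 CPM in hetL1002P and 92.8 to 157 CPM in WT. The 15 endothelial markers summed to 429 to 442 CPM in hetX753, 363 to 446 CPM in hetL1002P and 413 to 463 CPM in WT. The 14 slow and oxidative fibre genes summed to 5633 to 7126 CPM in hetX753, 5360 to 8448 CPM in hetL1002P and 4816 to 8322 CPM in WT. The 14 fast fibre genes summed to 207014 to 231595 CPM in hetX753, below the 244558 to 275735 CPM of WT, with 213552 to 251290 CPM in hetL1002P. The block on hetL1002P and WT alone called 2.37% of genes lower in hetL1002P. Among them were 5 fast fibre genes (Myoz1, Pvalb, Tnnc2, Tnni2 and Tnnt3), 2 endothelial genes (Cldn5 and Egfl7) and the adipocyte gene Fabp4. Their part in the values of the 9 genes was not tested.

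Among the 27 receptors, partners and upstream regulators of the pathway, none passed by edgeR in any comparison, against 0.508% of genes in hetX753 against WT. There 10 of the 27 had an unadjusted p under 0.05, as 2718 of 12989 genes did. DESeq2 called 4 higher there, as it did 389 of 12989 genes, and limma-voom none. The median log2 fold change was 0.37 in hetX753 against WT and 0.12 in hetL1002P against WT, against 0.00 and 0.01 for all genes. Ppara, the receptor of fat oxidation, had 12.6, 13.5 and 18.4 CPM in hetX753, 16.8, 12.9 and 11.01 CPM in hetL1002P, and 10.8, 13.6 and 8.03 CPM in WT (log2 fold change 0.46 in hetX753 against WT, adjusted p = 0.27). Ppard, the receptor isoform most abundant in muscle, averaged 36.2 ± 1.84 CPM in hetX753, 33.9 ± 1.83 CPM in hetL1002P and 37.3 ± 2.83 CPM in WT. The coactivator gene Ppargc1a averaged 23.2 ± 6.46 CPM in hetX753, 21.5 ± 3.46 CPM in hetL1002P and 15.7 ± 3.88 CPM in WT (SD, n = 3 libraries each). The smallest adjusted p in hetX753 against WT was that of Esrrg, an orphan receptor of oxidative metabolism (log2 fold change 1.30, adjusted p = 0.0761), followed by the Mediator subunit Med1 (0.59, adjusted p = 0.0805). The corepressor Nrip1 had a log2 fold change of 1.64 (adjusted p = 0.121). WT 3, a library that stood apart, was the lowest WT library at Ppara, Ppargc1a, Esrrg, Med1 and Nrip1, and the highest at Ppard. Its part in the medians was not tested. In hetL1002P against WT, the block on the 2 genotypes alone called 6 of the 27 higher, Esrrg, Foxo3, Ncoa1, Ncor1, Nrip1 and Ppargc1a, against 2.63% of genes called higher.

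Of 50 other PPAR target genes, 46 were tested, and their median log2 fold change was 0.03 in hetX753 against WT, with 27 above 0 and 19 below. The median of the 9 genes there was 1.11, but they were chosen for high values in hetX753. Nothing is therefore read from the gap between these medians. By edgeR 1 passed higher and 1 lower there, against 0.331% of genes higher and 0.177% lower, and none in the comparisons with hetL1002P. Cat, the peroxisomal catalase, had 78.1, 82.7 and 88.5 CPM in hetX753, 62.2, 70.9 and 53.2 CPM in hetL1002P, and 54.6, 54.5 and 48.3 CPM in WT (log2 fold change 0.66 in hetX753 against WT, adjusted p = 0.0487). Acsl3, an acyl-CoA synthetase of the endoplasmic reticulum and droplets, had 12.9, 13.6 and 10.3 CPM in hetX753, 24.9, 18.3 and 21.6 CPM in hetL1002P, and 20.9, 27.2 and 21.6 CPM in WT (-0.92, adjusted p = 0.0403). Each call held in 2 of the 9 fits that left out a library, those without hetL1002P 2 and hetL1002P 3. In the rest of these 9 the adjusted p ran up to 0.243 for Cat and 0.184 for Acsl3 (both without hetX753 3). Of 11 other alternative fits, 5 kept the call of Cat and 7 that of Acsl3, with adjusted p up to 0.377 and 0.308. Library totals alone, limma-voom and the replicate block on all 9 libraries lost both calls. Mgll, the monoglyceride lipase, had a log2 fold change of 0.53 (adjusted p = 0.0742).

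None of the 20 paralogues tested passed by edgeR in any comparison. In hetX753 against WT 3 had an unadjusted p under 0.05, as 2718 of 12989 genes did. DESeq2 called 1 higher and 1 lower there, against 389 higher and 251 lower of all 12989. The block on hetL1002P and WT alone called Acot7, an acyl-CoA thioesterase gene, lower in hetL1002P (log2 fold change -0.38, adjusted p = 0.0474), as it did 2.37% of genes. In the edgeR fit of all libraries Acot7 was at -0.57 in hetX753 against WT (adjusted p = 0.118) and -0.38 in hetL1002P against WT (adjusted p = 0.579). The libraries of both carriers lay below all WT libraries at Acot7, as 15.8% of genes do in hetX753 and 3.77% in hetL1002P. Plin4, a droplet coat gene of fat and muscle, had 214, 419.7 and 349.6 CPM in hetX753, 189, 213 and 186 CPM in hetL1002P, and 175, 229 and 128 CPM in WT (log2 fold change 0.89 in hetX753 against WT, adjusted p = 0.126), with hetX753 1 below WT 2. None of the 18 genes of the pyruvate dehydrogenase complex and its switches passed by edgeR in any comparison. In hetX753 against WT 6 of the 18 had an unadjusted p under 0.05, as 2718 of 12989 genes did. DESeq2 called 2 genes of the complex and its switches higher there, against 389 of 12989. Pdha1, its catalytic subunit, had a log2 fold change of 0.35 (adjusted p = 0.129). Pdpr, a regulator of the phosphatase that opposes Pdk4, had 30.4, 29.1 and 50.4 CPM in hetX753, 42.3, 54.8 and 8.21 CPM in hetL1002P, and 16.2, 9.60 and 4.83 CPM in WT (1.82 in hetX753 against WT, adjusted p = 0.162). It was lowest in hetL1002P 3 and WT 3, the libraries that stood apart.

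The list of 26 genes that FoxO factors and glucocorticoids raise in fasted muscle had no edgeR call in any comparison. An unadjusted p under 0.05 was reached by 3 of the 26 in hetX753 against WT, as by 2718 of 12989 genes. In hetL1002P against WT 3 reached it, as did 1034 of 12989. DESeq2 called 2 lower in hetX753 against WT, as it did 251 of 12989 genes. The median log2 fold change of the list was -0.05 in hetX753 against WT, -0.23 in hetL1002P against WT and 0.16 in hetX753 against hetL1002P. The block on hetL1002P and WT alone called Irs2 and Sesn3 higher in hetL1002P, as it did 2.63% of genes. The ubiquitin ligase genes Fbxo32 and Trim63 are best known for their rise in fasting. In hetX753 against WT they had log2 fold changes of -0.72 (adjusted p = 0.134) and -0.47 (adjusted p = 0.136). Fbxo32 averaged 217 ± 54.3 CPM in hetX753, 279 ± 41.6 CPM in hetL1002P and 356 ± 86.1 CPM in WT (SD, n = 3 libraries each).

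Of the 26 fed-state and lipogenic genes, 1 fell in hetX753 against WT, where 0.177% of genes were called lower. It also fell in hetX753 against hetL1002P, where 0.0539% were. None passed in hetL1002P against WT. The block on hetL1002P and WT alone called Gpam and Pfkfb3 higher in hetL1002P, as it did 2.63% of genes. Tbc1d4, which encodes the AS160 protein that links insulin to glucose uptake in muscle, had 10.2, 9.63 and 11.95 CPM in hetX753, 28.8, 25.2 and 35.5 CPM in hetL1002P, and 46.2, 27.3 and 28.8 CPM in WT. All hetX753 libraries lay below all WT libraries, as 15.8% of genes do, and below all hetL1002P libraries, with a log2 fold change of -1.69 (SE 0.21, adjusted p = 0.0168) against WT and -1.49 (SE 0.21, adjusted p = 0.0355) against hetL1002P. The call against WT held in 6 of the 9 fits that left out a library, with adjusted p of 0.0504 without WT 1, 0.0609 without hetX753 2 and 0.0589 without hetX753 3, and that against hetL1002P in 4. Its relative Tbc1d1 had a log2 fold change of 0.45 (adjusted p = 0.127), and the lipogenic factor Srebf1 one of -0.58 (adjusted p = 0.134), in hetX753 against WT.

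**Figure D4:**
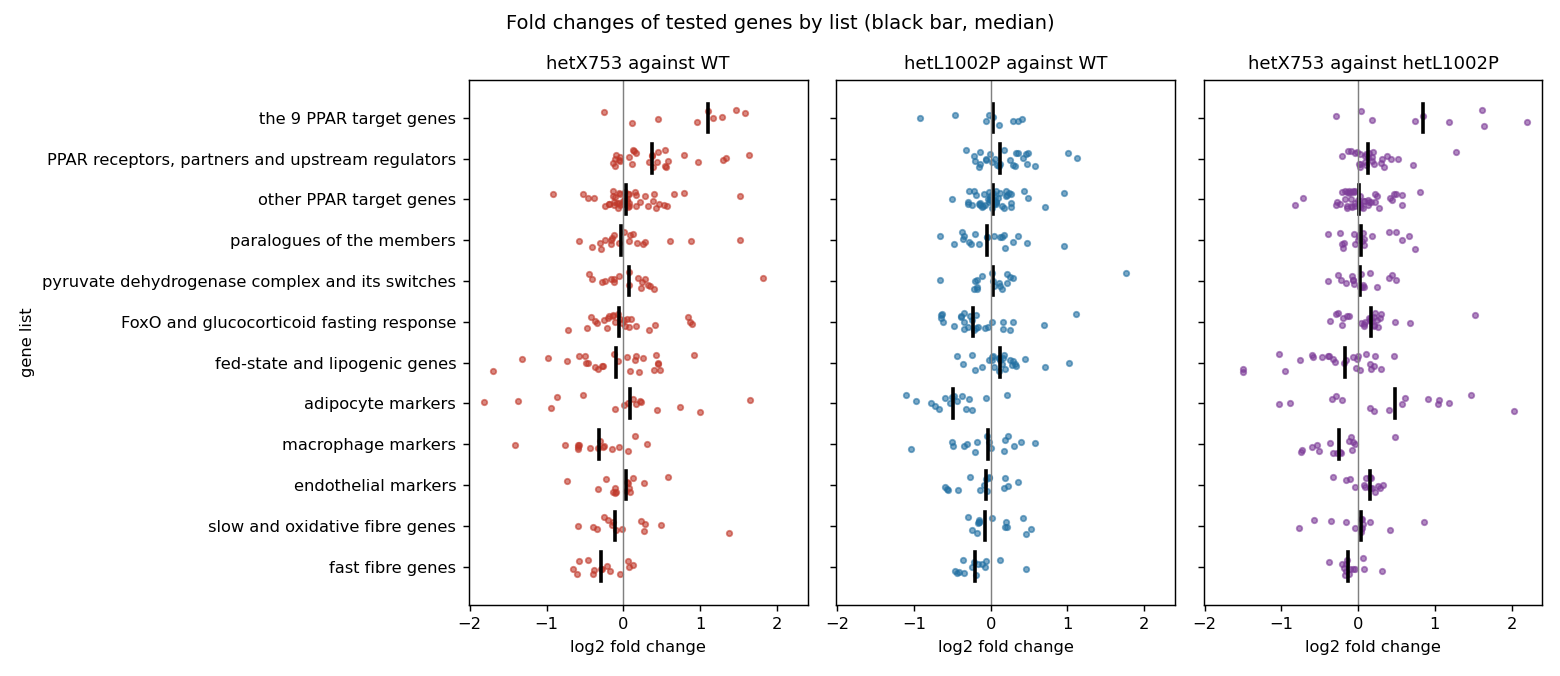
Log2 fold change of the tested genes of each list (horizontal axis) in the 3 comparisons, one point per gene with the list's median as a bar. The 9 chosen genes have medians of 1.11 in hetX753 against WT, 0.03 in hetL1002P against WT and 0.84 in hetX753 against hetL1002P, and the other PPAR targets have medians between 0.01 and 0.03. The 9 were chosen for high values in hetX753, so nothing is read from the gap in the comparisons that include it.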

How the data were processed

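Raw read counts by gene symbol, as deposited by the authors for 9 libraries without normalization, were the input; 0 columns were left unused. The kit, TruSeq RNA Library Prep Kit v2 per the labels' protocols, does not mark strand. Tools listed in the submitters' processing notes are featureCounts 1.4.6, Subread, Bowtie2 2.2.6 and TopHat2 2.0.14, and the build listed is mm10; their roles, the annotation and the handling of reads shared by genes are not stated.

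Genotypes come from the sample titles. Nothing says that libraries came from separate animals, so the p-values reflect variation among these libraries only, which may be technical. edgeR 4.0.16 (R 4.3.3) fitted all 9 libraries by quasi-likelihood with genotype as the only term: filterByExpr kept 12989 genes, with TMM scaling, robust dispersion, 6 residual degrees of freedom and Benjamini-Hochberg adjustment over all genes tested; an adjusted p under 0.05 was called. Every adjusted p comes from this fit unless another is named. Log2 fold changes are those of the first-named genotype over the second; a standard error is the size of the change divided by the square root of F. Totals of 19768149 to 33977252 counts leave Acot1 and Bub1b on few reads.

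The 9 genes and all lists were chosen with earlier results of these data known. Named were the 9 genes, list genes past the threshold, up to 4 per list with the smallest p in hetX753 against WT, and the 3 nearest genes to each of Cpt1a, Ucp3, Acot2 and Angptl4 averaging at least 1 CPM (log2 CPM with a prior count of 2); not all are printed, and 1 gene near Ucp3 is not reported here. Pdk2, Ppara, Ppard, Ppargc1a, Lep and Cidec were described outside that rule for their role or likeness. Same-numbered libraries of hetL1002P and WT deviated together (r = 0.285, 0.360 and 0.516 over genes, each above 0.1), whereas those of hetX753 with WT (0.0677, 0.164 and -0.144) and with hetL1002P (-0.160, 0.00565 and -0.279) did not; the titles give the numbers without saying what they mark. Alternatives were RLE scaling, library totals, no filter, a 1 CPM filter, DESeq2 1.42.0, limma-voom 3.58.1, fits of 2 genotypes, a replicate block and left-out libraries. The block on 2 genotypes alone and the fit without hetX753 2 and WT 2 were chosen after seeing the data. Promoters are from RefSeq (GRCm38.p6); exons and coding sequences from GENCODE M21. The fit was run on simulated counts with changes placed in hetX753 against WT. It called 13 of 67 genes changed 1.5-fold, 41 of 67 changed 2-fold and 59 of 66 changed 3-fold, and 6 unchanged genes. Smaller changes were thus often missed, and the lack of a call does not show the lack of a change.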

Additional observations from a re-analysis of the deposited data

How the results depend on the processing

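The count of genes called in hetX753 against WT (66) was 31 with library totals alone as scaling, 640 with DESeq2, 254 in a fit of the 2 genotypes, 340 without WT 3 and hetL1002P 3, 4 without hetX753 2 and WT 2, and 0 to 669 with a library left out (0 without WT 1, 669 without hetL1002P 3). In hetL1002P against WT (0) it was 2 with no filter, 5 with DESeq2, 2 with limma-voom, 2 without WT 3 and hetL1002P 3, and 0 to 1 with a library left out. In hetX753 against hetL1002P (15) it was 38 with no filter, 138 with DESeq2, 5 in a fit of the 2 genotypes, 95 without WT 3 and hetL1002P 3, 5 without hetX753 2 and WT 2, and 0 to 19 with a library left out. The replicate block on all 9 libraries left 66 calls in hetX753 against WT and gave 31 in hetX753 against hetL1002P; the block on 2 genotypes alone gave 106 and 2 there and 635 in hetL1002P against WT. The cause of these moves was not tested. Library totals alone moved the median log2 fold change of hetX753 against WT by 0.12; changes are given relative to TMM scaling.

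In hetX753 against WT, the log2 fold changes of Cpt1a, Ucp3, Acot2, Angptl4, Pdk4 and Plin5 stayed above 0 in every alternative run. In hetL1002P against WT, values near 0 changed sign: Ucp3 was 0.029 with library totals alone, -0.45 without WT 3 and hetL1002P 3, and -0.42 to 0.17 with a library left out; Ucp2 was 0.0096 with library totals alone, 0.067 without hetX753 2 and WT 2, and -0.35 to 0.078 with a library left out; Acot1 was -0.044 to 1.15 with a library left out; Pdk4 was 0.16 without hetX753 2 and WT 2, and -0.79 to 0.17; Plin2 was -0.05 without WT 3 and hetL1002P 3, and -0.11 to 0.12; Plin5 was -0.08 in that fit, -0.13 without hetX753 2 and WT 2, and -0.22 to 0.32. Depth limits Acot1 (7 to 22 counts per library).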
